A study of Mus musculus with 31 samples.

Results

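The genes described here are 10 genes of the NF-kB pathway: the subunits Nfkb1, Nfkb2 and Relb, the inhibitors Nfkbia, Nfkbie and Nfkbiz, the feedback regulators Tnfaip3 and Birc3, and the adhesion targets Icam1 and Vcam1. They were chosen by name, with earlier results of these data known. Each was matched to the gene symbol in the deposited count table, which lists 39017 genes. All 10 were found and all 10 passed the filter on low counts. The study measured polyA RNA by bulk RNA sequencing in 31 samples of mouse mammary tumours grown orthotopically in syngeneic hosts, in the 4T1 and the MT models, both labelled wild type. The 4 arms of each model were saline with PBS (called control here), saline with phenformin, poly I:C with PBS (called poly I:C here), and poly I:C with phenformin (called the combination). Each of the 8 groups held 4 samples, except 4T1 phenformin with 3. Phenformin is a biguanide that inhibits mitochondrial complex I, and poly I:C, a synthetic analogue of viral double-stranded RNA, is recognised by Toll-like receptors. The labels give no age, dose, time or host other than the strain, and do not say that replicates are separate animals, so the p-values measure the spread between these samples.

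NF-kB is a family of transcription factors that bind DNA as dimers. In resting cells the dimers are held in the cytoplasm by IkB proteins, and receptor signals, among them those from Toll-like receptors and from the tumour necrosis factor receptor, cause IkB to be degraded so that the dimers enter the nucleus. The dimers activate genes of inflammation and leukocyte adhesion, and also the genes of their own inhibitors, which makes several of the genes below both regulators and targets. In a tumour the transcripts can come from cancer cells, endothelium and leukocytes.

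The titles and the sample tags disagree on the model: libraries titled 4T1 carry the tags of the FVB strain and the MT4788 cell line, and those titled MT carry the others, whereas the design text assigns MT to FVB and 4T1 to BALB/c. The groups here follow the titles. H2-Ea-ps, an MHC class II locus that differs between mouse strains, was at 214 to 970 CPM (read counts scaled to a common library size) in the 15 libraries titled 4T1 and at 5.24 to 53.0 CPM in the 16 titled MT, so the 2 sets of titles separated on it. Total counts ran from 12160110 to 19849915 per library. All 7 epithelial markers had counts in every library, and so did all 8 endothelial, fibroblast and macrophage markers, so the samples held stroma and leukocytes beside epithelium, and fewer cells of a type and less RNA per cell cannot be told apart in them. The MT libraries fell into separate states: Sox10, a neural crest and mammary progenitor factor, ranged from 34.4 to 211 CPM in replicates 1 to 3 of both the control and the phenformin arm, and at 3.19 CPM or less in the other 10. MT results are therefore also given without those 6 libraries, which leaves 1 control library, assumed there to vary like the other groups. With 1 control library, a call lost in that fit does not tell a smaller change from too few libraries.

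Levels of different genes were compared as CPM per kilobase of annotated exon. In 4T1 control tumours Nfkbia was highest, at 48.9 ± 10.9 CPM per kilobase (SD, n = 4), followed by Nfkb2 at 27.9 ± 2.0 and Vcam1 at 17.6 ± 2.74. The libraries of these 3 genes did not overlap with those of the gene below, except that Vcam1 overlapped with Nfkbie at 14.6 ± 1.94. The next were Nfkb1 at 13.9 ± 1.25, whose range overlapped with that of Nfkbie, Tnfaip3 at 10.04 ± 1.69 and Birc3 at 9.09 ± 0.333, which overlapped with each other, then Icam1 at 6.89 ± 0.808 and Relb at 6.45 ± 1.06, which overlapped too. Nfkbiz was lowest at 3.86 ± 0.798. In MT control tumours Nfkbia was again highest at 74.4 ± 48.3 CPM per kilobase, Nfkb2 followed at 14.6 ± 1.89 and Nfkb1 the next at 9.39 ± 1.62, without overlap between these neighbours. The other 7 genes lay between 3.20 (Tnfaip3) and 9.36 (Icam1) CPM per kilobase, and each overlapped with its neighbour in the order. Nfkbia was the highest of the 10 in all 8 groups.

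Promoter sequence is shown for genes that the results below turn on. RefSeq entries were found for 6 of the 10 genes, and none was used for Nfkb1, Relb, Nfkbiz and Vcam1. The letters are the bases just before the RefSeq transcription start (GRCm38.p6), 5′ to 3′ along the gene, and capitals mark matches to either of 2 motifs searched on both strands: the kappa-B consensus decamer, and the same decamer with T in place of G as its first base. Each window is 250 bases long except for Tnfaip3, of which the last 30 bases are shown.

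Icam1, chr9:21015690-21015939, plus strand: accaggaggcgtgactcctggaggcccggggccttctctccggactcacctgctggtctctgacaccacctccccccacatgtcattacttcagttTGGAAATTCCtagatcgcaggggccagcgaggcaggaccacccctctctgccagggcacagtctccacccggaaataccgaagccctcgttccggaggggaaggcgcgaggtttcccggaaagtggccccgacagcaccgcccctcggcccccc
Nfkbia, chr12:55492648-55492897, minus strand: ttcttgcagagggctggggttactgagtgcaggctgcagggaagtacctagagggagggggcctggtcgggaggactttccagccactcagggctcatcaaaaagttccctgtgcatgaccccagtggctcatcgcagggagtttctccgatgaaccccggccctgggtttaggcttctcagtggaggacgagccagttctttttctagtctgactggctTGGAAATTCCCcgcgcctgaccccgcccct
Nfkbie, chr17:45555450-45555699, plus strand: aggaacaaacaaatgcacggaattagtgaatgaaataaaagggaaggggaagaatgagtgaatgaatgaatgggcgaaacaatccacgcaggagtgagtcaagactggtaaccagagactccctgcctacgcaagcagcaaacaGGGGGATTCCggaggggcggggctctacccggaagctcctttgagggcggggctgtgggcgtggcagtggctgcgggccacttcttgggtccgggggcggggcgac
Tnfaip3, chr10:19015411-19015440, minus strand: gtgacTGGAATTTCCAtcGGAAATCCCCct

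Within 250 bases, 4 of the 6 genes, Nfkb2, Nfkbia, Nfkbie and Tnfaip3, held a match to the consensus, against 3.9% of 32851 mouse promoter windows of the same length. Genes were counted over all their start sites, 3 for Nfkb2 and 2 for Tnfaip3, whereas the share is per window. The second Tnfaip3 window held no match to either motif, and Tnfaip3 positions below are for its first start site. The variant with T first was found in 3 of the 6, Icam1, Nfkbia and Tnfaip3, and in 4.24% of the windows. All 3 held the same letters, TGGAAATTCC. In Icam1 they stood 154 to 145 bases before the start, on the gene's strand. In Nfkbia they stood 30 to 21 bases before the start, overlapping a consensus match on the opposite strand, GGGAATTTCC. In Tnfaip3 they lay on the opposite strand, 24 to 15 bases before the start, overlapping another variant match on the gene's strand, TGGAATTTCC, and close to a consensus match, GGGGATTTCC. A further consensus match of Tnfaip3 lay 125 to 116 bases before the start, outside the stretch shown. The Nfkbie match to the consensus was GGGGGATTCC, 106 to 97 bases before the start. Icam1 and Birc3 had no match to the consensus in this window. A match describes the letters and does not show binding.

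Across the 10 genes, poly I:C had the most calls. A gene is called here when its adjusted p is under 0.05 in edgeR's quasi-likelihood test, with Benjamini-Hochberg adjustment over all genes tested. In 4T1, poly I:C raised 2 of the 10 genes, Tnfaip3 and Nfkbiz, against 3.26% of 17445 genes called higher and 6.32% called either way. In MT 5 of the 10 were higher after poly I:C: Vcam1, Icam1, Nfkbie, Tnfaip3 and Nfkb1. There 8.52% of 17857 genes were called higher and 19.6% either way. With the combination in MT, 3 of the 10 were higher than in control: Vcam1, Icam1 and Nfkbie. There 2.81% of genes were called higher and 6.14% either way. Every MT library given poly I:C was low in Sox10, and MT control replicates 1 to 3 were high in it. These MT calls therefore hold treatment and MT state together. The median log2 fold change of the 10 genes was 0.34 for poly I:C in 4T1, 0.77 for poly I:C in MT and 1.10 for the combination in MT, beside medians over all genes of 0.010, 0.011 and 0.016. No gene among the 10 was called for phenformin alone in either model, nor for the combination in 4T1.

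**Figure D1:**
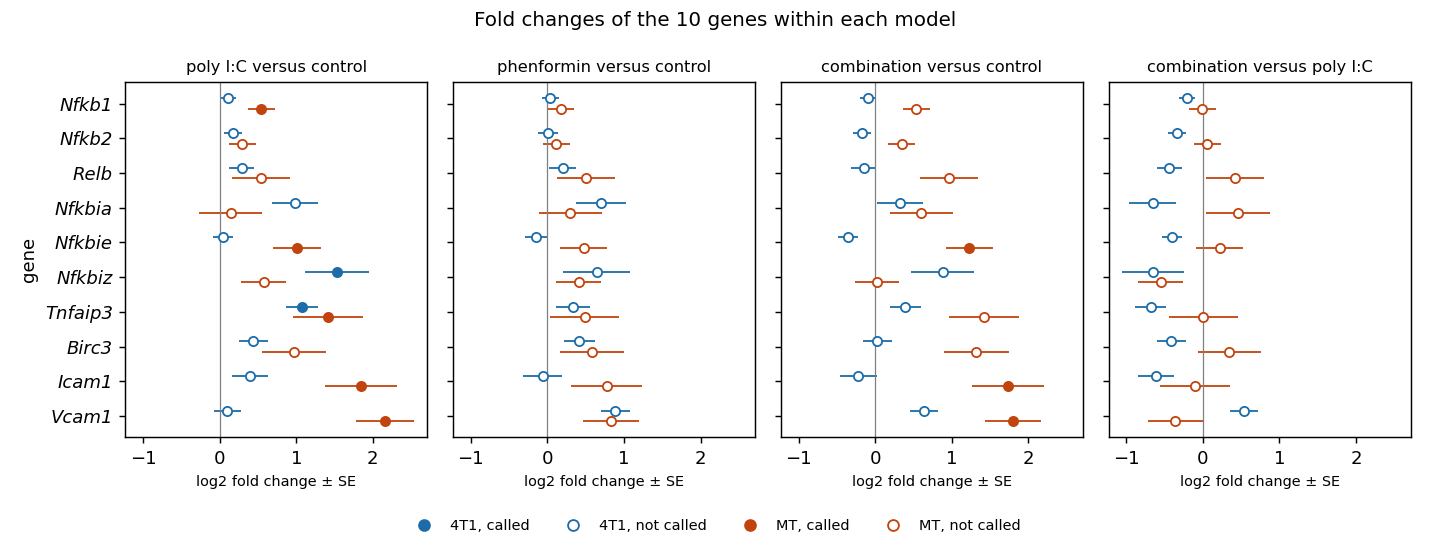
Log2 fold changes of the 10 genes (x axis, bars show the SE of the fit) in 4 comparisons, with 4T1 in blue and MT in orange and filled points for calls at an adjusted p under 0.05. The filled points are 2 in 4T1 and 5 in MT for poly I:C, and 3 in MT for the combination against control.

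Of the 3 subunits, Nfkb1 was called after poly I:C in MT and none was called in 4T1. Nfkb1 encodes p105, the precursor of p50, and Nfkb2 encodes p100, the precursor of p52, while Relb encodes the partner of p52 in the non-canonical pathway. Nfkb1 was at 95.6, 107.6, 108.5 and 141.2 CPM in MT controls and at 153.2, 155.4, 184.2 and 157.8 CPM after poly I:C. Every poly I:C library lay above every control library, and Nfkb1 rose by 0.54 ± 0.18 on the log2 scale (± gives the SE of the fit, adjusted p = 0.0457, edgeR). That call was lost without any 1 of 7 of the 8 libraries of these groups (adjusted p of 0.062 to 0.126), all but MT control replicate 4, and under the replicate block (adjusted p = 0.0529). Without the libraries high in Sox10 the log2 fold change was 0.23. With a covariate for the MT state (Krt5 over Sox10, as a log2 ratio) it was 0.23 as well (adjusted p = 0.531). In the control and phenformin arms only replicate 4 was low in Sox10, so all fits with this covariate depend much on those libraries.

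Nfkb2 was not called in MT, with 54.3, 73.6, 70.2 and 70.0 CPM in controls against 66.0, 80.5, 107.1 and 70.6 CPM after poly I:C, which overlap. Relb was at 14.8, 15.8, 17.1 and 33.7 CPM in MT controls and at 22.9, 24.1, 43.6 and 26.2 CPM after poly I:C. Its control replicate 4 was above 3 of the 4 poly I:C libraries, and its log2 fold change of 0.54 ± 0.38 was not called. The combination gave 54.1, 27.6, 26.4 and 50.0 CPM of Relb (0.97 ± 0.38 against control, adjusted p = 0.117, edgeR). Without MT control replicate 4 that value was 1.31 (adjusted p = 0.0233), so the call of Relb depended on 1 library. That fit kept only controls high in Sox10 beside combination libraries low in it, and called 29.7% of 18116 genes. Treatment and MT state cannot be told apart there. In 4T1 the subunits stayed within overlapping ranges in every arm: Nfkb1 from 141.7 to 208.4 CPM, Nfkb2 from 91.3 to 162.6 CPM and Relb from 21.0 to 39.7 CPM.

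**Figure D2:**
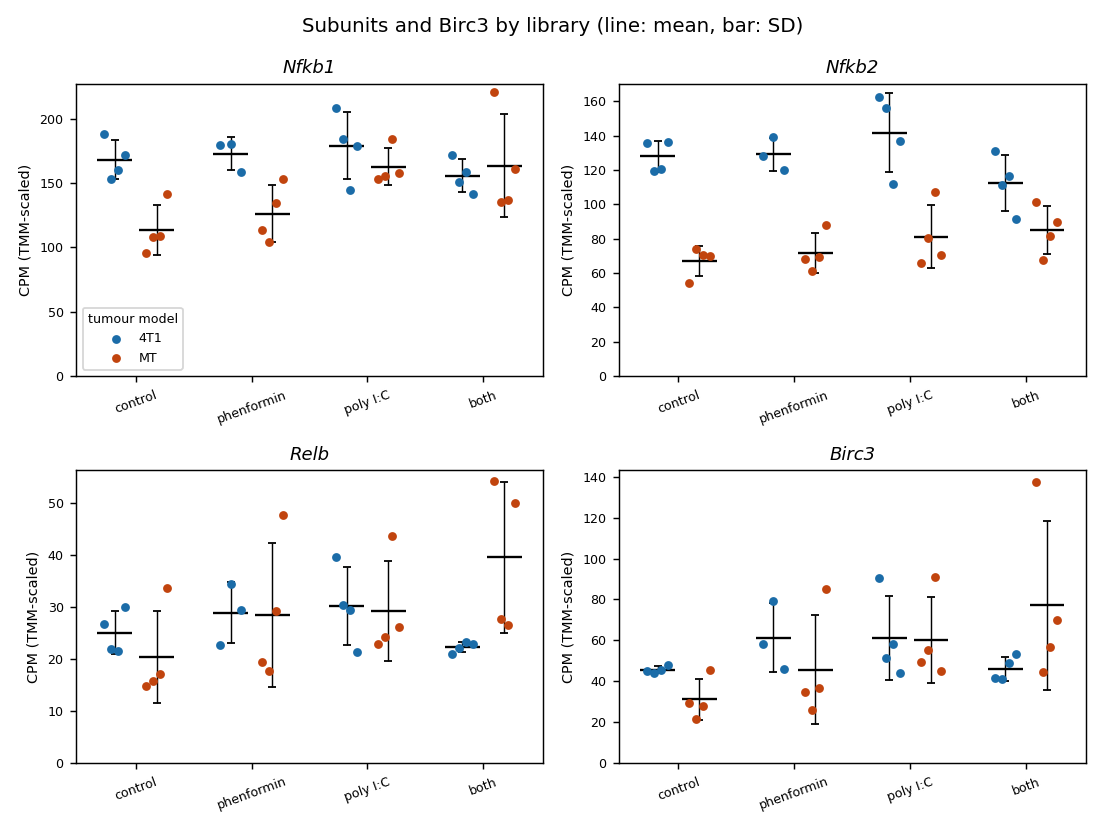
CPM per library (y axis, from 0) of the subunits Nfkb1, Nfkb2 and Relb and of Birc3 by arm (x axis), with 4T1 in blue, MT in orange, black lines for the mean and bars for the SD. The highest MT control point of Relb, 33.7 CPM, is replicate 4, and the 4 MT poly I:C points of Nfkb1 lie above its 4 MT control points.

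Among the inhibitors, Nfkbiz was called after poly I:C in 4T1 and Nfkbie in MT. Nfkbia encodes IkB-alpha, the classical cytoplasmic inhibitor and a fast feedback target. Its 4T1 control libraries were at 85.5, 68.8, 60.6 and 99.9 CPM, and its poly I:C libraries at 216.3, 135.0, 203.9 and 58.0 CPM. Poly I:C replicates 1 to 3 lay above all controls and replicate 4 lay below all of them. The log2 fold change of 0.98 ± 0.31 was not called (adjusted p = 0.0684, edgeR). Leaving out replicate 4 gave 1.25 (adjusted p = 0.00224). DESeq2 and limma voom called it with all libraries (adjusted p = 0.0124 and 0.0195).

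Nfkbiz encodes IkB-zeta, a nuclear IkB protein that is induced by inflammatory signals and acts as a co-activator at some targets. In 4T1 it was at 19.9, 24.7, 15.4 and 17.4 CPM in controls and at 88.8, 43.2, 74.5 and 15.01 CPM after poly I:C. It rose by a log2 fold change of 1.53 ± 0.41 (adjusted p = 0.0424, edgeR), with the groups overlapping through replicate 4 alone. The call was lost without any 1 of the other 7 libraries (adjusted p of 0.0712 to 0.113), and without replicate 4 the adjusted p was 0.00211. It was also lost under the replicate block (adjusted p = 0.0893). That replicate also had the lowest summed level of 8 neutrophil markers in its group, 56.1 CPM, beside 721, 304 and 869 CPM in replicates 1 to 3 and 78.6 to 170 CPM in controls. All 8 neutrophil markers had counts in each of these libraries but control replicate 1, where 7 had, and the part of neutrophil content in the result was not tested.

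In MT, Nfkbiz was not called after poly I:C (log2 fold change 0.57 ± 0.29, adjusted p = 0.173, edgeR), and its values of 56.5, 39.8, 21.1 and 31.3 CPM overlapped with the 21.4 to 27.7 CPM of controls. MT Nfkbia was at 84.4, 79.7, 78.6 and 236.5 CPM in controls and at 137.2, 108.2, 173.2 and 103.2 CPM after poly I:C, so that control replicate 4 exceeded every poly I:C library. The log2 fold change was 0.14 ± 0.41. In the fit with the covariate for the MT state it was -0.88 (adjusted p = 0.0407), the opposite direction. The covariate fit depends much on control replicate 4, the only control low in Sox10. In that fit 2 of the 10 genes were called after poly I:C, Nfkbia lower and Vcam1 higher, so that of the 5 calls Vcam1 alone was left.

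Nfkbie encodes IkB-epsilon, another cytoplasmic inhibitor under NF-kB control. Its MT control libraries were at 16.4, 16.8, 21.4 and 25.7 CPM, those after poly I:C at 27.2, 38.7, 60.2 and 33.5 CPM, and those of the combination at 58.3, 33.8, 39.8 and 55.9 CPM. Neither treated group overlapped with the controls. Nfkbie rose by a log2 fold change of 1.01 ± 0.31 after poly I:C (adjusted p = 0.0349, edgeR) and by 1.23 ± 0.31 with the combination (adjusted p = 0.0404). The first call was lost in 6 of 8 fits that each left out 1 library (adjusted p of 0.0505 to 0.112), all but those without control replicate 4 or poly I:C replicate 1. The second was lost in 7 of 8 (adjusted p of 0.0611 to 0.131), all but that without control replicate 4. Without the libraries high in Sox10 the log2 fold changes were 0.66 and 0.89 (adjusted p = 0.600 and 0.886), and with the state covariate they were 0.53 and 0.78 (adjusted p = 0.419 and 0.436). In 4T1 the Nfkbie groups overlapped: 49.6, 36.7, 43.5 and 48.6 CPM in controls and 53.5, 49.4, 41.3 and 37.1 CPM after poly I:C.

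Tnfaip3, which encodes the ubiquitin-editing enzyme A20 that ends NF-kB signalling, was the gene called after poly I:C in both models. In 4T1 it was at 86.8, 63.2, 61.6 and 78.6 CPM in controls and at 186.2, 163.5, 161.9 and 92.1 CPM after poly I:C. All poly I:C libraries lay above all controls, as for 4.86% of all genes, and Tnfaip3 rose by a log2 fold change of 1.08 ± 0.21 (adjusted p = 0.0125, edgeR). The call held without each 1 of the 8 libraries in turn. It was lost without the 5 4T1 libraries with the muscle gene Acta1 above 10 CPM (0.96 on the log2 scale, adjusted p = 0.199). In that fit 0 of 17540 genes were called. It was also lost without the 3 with Igkc, an immunoglobulin gene of B and plasma cells, above 100 CPM (1.005, adjusted p = 0.0612), where 1.49% of genes were called. The summed macrophage markers were at 1455 to 1952 CPM in these controls and at 563 to 1077 CPM after poly I:C, where 4 of 8 markers fell. The summed level of 8 fibroblast markers was 2069 to 3580 CPM in the controls and 3650 to 9011 CPM after poly I:C, where Col1a1 and Col1a2 rose. The part of macrophage and fibroblast content in the Tnfaip3 and Nfkbiz results was not tested. In MT Tnfaip3 was at 13.7, 16.9, 17.0 and 44.9 CPM in controls and at 42.8, 64.2, 87.1 and 49.0 CPM after poly I:C. Control replicate 4 overlapped with the treated group, and Tnfaip3 rose by a log2 fold change of 1.42 ± 0.46 (adjusted p = 0.044, edgeR). The MT call was lost in 6 of 8 fits that left out 1 library (adjusted p of 0.0639 to 0.128), all but those without control replicate 4 or poly I:C replicate 1. Without the libraries high in Sox10 the log2 fold change was 0.46 (adjusted p = 0.764), and with the state covariate 0.46 (adjusted p = 0.513).

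Birc3 encodes cIAP2, a ubiquitin ligase of the tumour necrosis factor receptor complex. It was not called in any arm of either model. Its MT libraries were at 29.3, 21.3, 28.0 and 45.3 CPM in controls, at 49.3, 55.2, 90.8 and 44.9 CPM after poly I:C, and at 137.3, 44.3, 56.7 and 69.8 CPM with the combination. The groups met only at control replicate 4, and without it the log2 fold change for the combination was 1.56 (adjusted p = 0.0246) in place of 1.32 ± 0.42 (adjusted p = 0.0695, edgeR). The controls left in that fit were all high in Sox10, so treatment and MT state cannot be told apart in it. It called 29.7% of 18116 genes. In 4T1 the controls were close together, from 44.1 to 47.9 CPM, and the poly I:C libraries spread from 44.1 to 90.6 CPM.

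**Figure D3:**
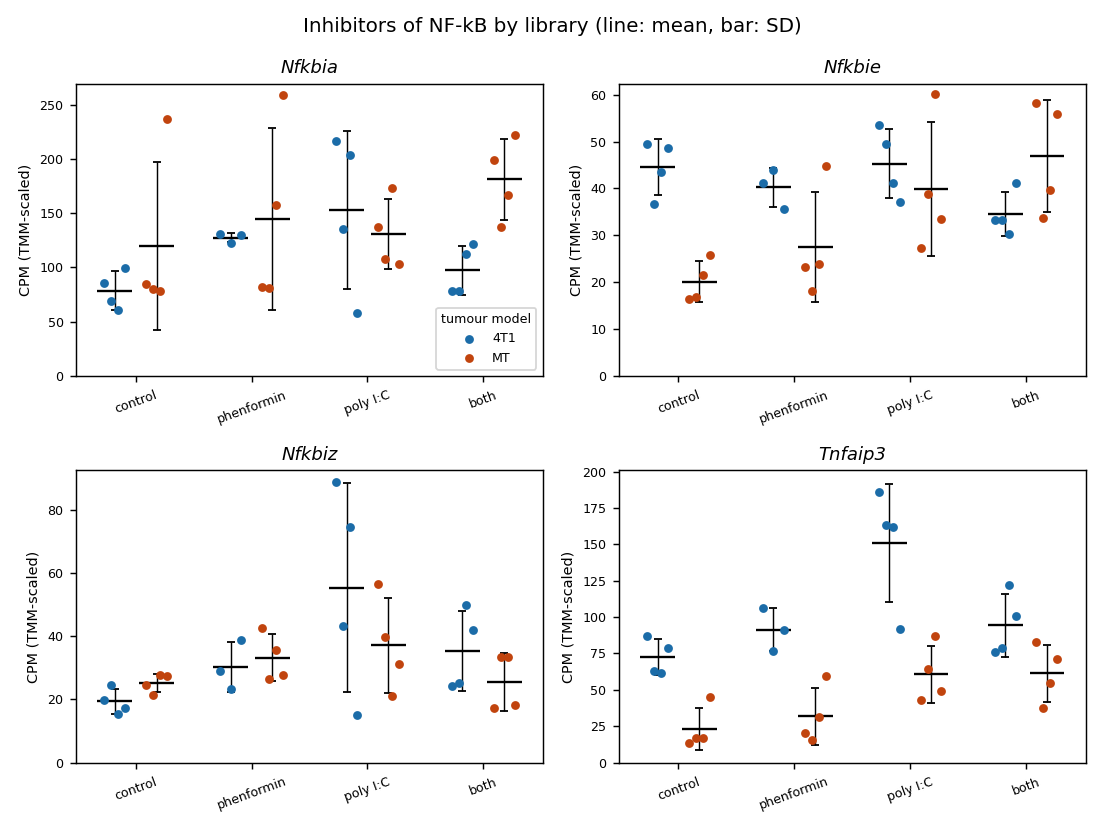
CPM per library (y axis, from 0) of Nfkbia, Nfkbie, Nfkbiz and Tnfaip3 by arm (x axis), with 4T1 in blue, MT in orange, black lines for the mean and bars for the SD. In 4T1 the lowest poly I:C point of Nfkbia (58.0 CPM), Nfkbiz (15.01 CPM) and Tnfaip3 (92.1 CPM) is replicate 4 in each panel.

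The adhesion genes had the largest fold changes of the 10 genes in MT and were not called after poly I:C in 4T1. Icam1 encodes the ligand of leukocyte beta-2 integrins, and Vcam1 the ligand of the integrin alpha-4 beta-1, both on activated endothelium and other cells. Icam1 in MT was at 29.0, 26.5, 21.0 and 86.7 CPM in controls and at 136.5, 144.0, 169.2 and 125.7 CPM after poly I:C. The combination libraries were at 106.2, 118.5, 154.6 and 160.4 CPM. All 8 libraries with poly I:C lay above all 4 controls, of which replicate 4 was the nearest. Icam1 rose by a log2 fold change of 1.84 ± 0.47 after poly I:C (adjusted p = 0.0167, edgeR) and of 1.73 ± 0.47 with the combination (adjusted p = 0.0463).

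Vcam1 in MT was at 42.2, 49.6, 34.4 and 75.3 CPM in controls and at 172.4, 223.6, 285.8 and 205.5 CPM after poly I:C, with no overlap. The combination gave 217.6, 107.6, 156.6 and 217.1 CPM, again above every control. Vcam1 rose by a log2 fold change of 2.16 ± 0.38 after poly I:C (adjusted p = 0.00288, edgeR) and of 1.80 ± 0.37 with the combination (adjusted p = 0.0248). Groups of libraries were fully apart, higher, for 4 of the 10 genes after poly I:C and for 3 with the combination, where 12.2% and 5.89% of all genes were.

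Left-out libraries changed several of these calls. Vcam1 after poly I:C held without each 1 of 8 libraries in turn, whereas Icam1 was lost in 3 of 8 such fits (adjusted p of 0.0502 to 0.062), each of them without 1 of MT control replicates 1 to 3. For the combination, Vcam1 was lost in 5 of 8 (0.0519 to 0.0886), all but those without combination replicate 1, combination replicate 2 or control replicate 4. Icam1 was lost in 7 of 8 (0.0592 to 0.151), all but that without control replicate 4. Without the libraries high in Sox10, the log2 fold changes for poly I:C were 1.59 for Vcam1 (adjusted p = 0.204) and 0.76 for Icam1 (adjusted p = 0.279), and those for the combination were 1.23 and 0.66 (adjusted p = 0.743 and 0.784). With the state covariate, Vcam1 after poly I:C stayed called at 1.44 (adjusted p = 0.041) and Icam1 did not at 0.69 (adjusted p = 0.101). The combination gave 1.15 for Vcam1 and 0.68 for Icam1 (adjusted p = 0.256 and 0.292), where 0 of 17857 genes were called. Among the libraries low in Sox10, the poly I:C values of both genes were above the lone control library, MT control replicate 4. A lone library has no spread of its own, and how many of all genes lay so was not counted.

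Marker levels of other cell types moved with the adhesion genes in MT. The summed level of 8 endothelial markers was 121 to 202 CPM in controls, 289 to 469 CPM after poly I:C and 292 to 362 CPM with the combination, and 8 and 3 of the 8 markers rose. The summed level of 8 macrophage markers was 363 to 467 CPM in controls, 1185 to 1448 CPM after poly I:C and 567 to 1387 CPM with the combination, and 8 and 6 of the 8 rose. The summed level of 8 fibroblast markers was 468 to 883 CPM in controls, 1166 to 1328 CPM after poly I:C and 610 to 1190 CPM with the combination, and 4 and 0 of the 8 rose. For 7 T cell markers the sums were 52.4 to 458, 178 to 674 and 207 to 977 CPM, and 0 of the 7 were called in either comparison. For 7 B and plasma cell markers they were 5.47 to 686, 38.0 to 3886 and 39.8 to 14588 CPM, also with 0 of the 7 called. The highest of these were in poly I:C replicate 3 and combination replicate 1, which also had the highest Relb and Birc3 of their groups. Of 7 neutrophil markers tested, 5 and 6 rose, among them Retnlg and Mmp8, but the summed level of all 8 had a lower median than in controls. It was 19.9 to 2465 CPM in controls (median 938), 124 to 379 CPM after poly I:C (median 260) and 175 to 725 CPM with the combination (median 376). S100a8, an abundant neutrophil gene, was at 1069 ± 1015 CPM in controls, 95.1 ± 46.4 CPM after poly I:C and 168 ± 113 CPM with the combination, without a call. None of the endothelial or macrophage markers was at 0 in any library. The part of these cells in the MT results of the 10 genes was not tested.

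**Figure D4:**
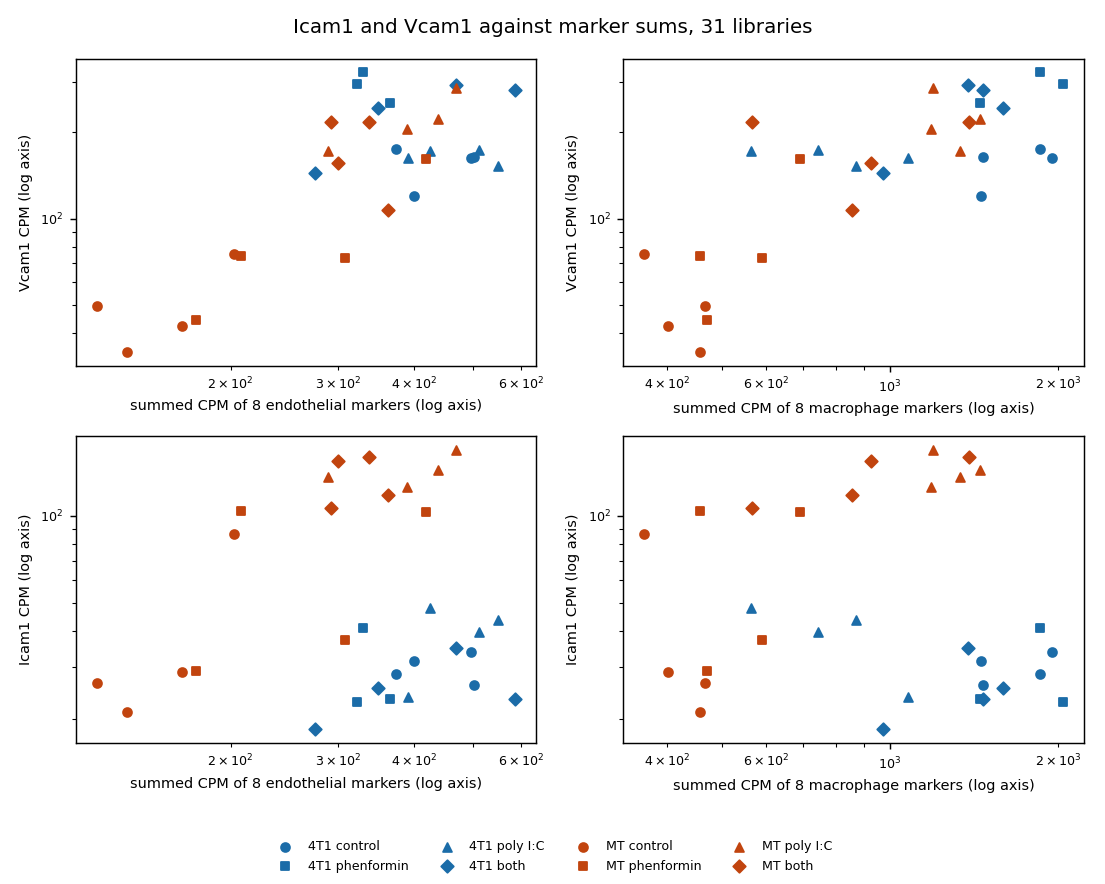
CPM of Vcam1 (top row) and Icam1 (bottom row) against the summed CPM of 8 endothelial markers (left) and 8 macrophage markers (right), log axes, one point per library, with 4T1 in blue, MT in orange and a symbol for each arm. The MT control libraries sit at 121 to 202 CPM of endothelial markers and the MT poly I:C libraries at 289 to 469 CPM.

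In 4T1, Icam1 was at 26.1, 28.4, 34.1 and 31.7 CPM in controls and at 48.2, 39.9, 43.9 and 23.8 CPM after poly I:C, where replicate 4 was below every control. Its log2 fold change of 0.39 ± 0.24 was not called. Vcam1 stayed at 171.9, 173.3, 152.2 and 163.0 CPM after poly I:C against 164.4, 175.6, 163.4 and 120.5 CPM in controls, a log2 fold change of 0.10 ± 0.18. The 2 ranges overlapped almost completely. The endothelial marker sum in 4T1 was 373 to 502 CPM in controls and 391 to 549 CPM after poly I:C, with none of 8 markers called.

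Vcam1 in 4T1 was instead higher in the libraries given phenformin, without a call. The phenformin libraries were at 294.5, 323.6 and 252.3 CPM, all above the controls. The log2 fold change of 0.89 ± 0.19 had an unadjusted p of 0.00039 and an adjusted p of 0.177 in edgeR, where 0 of 17445 genes (0%) were called and 1753 had an unadjusted p under 0.05. DESeq2 called Vcam1 there (adjusted p = 0.00577) and limma voom did not call any of the 10. Vcam1 and Nfkbia were the 2 of the 10 genes whose phenformin libraries lay wholly above the controls, as 5.19% of all genes did. Nfkbia was at 130.7, 122.5 and 129.6 CPM with phenformin (log2 fold change 0.70 ± 0.32, adjusted p = 0.496). The endothelial marker sum was 323 to 365 CPM with phenformin and 373 to 502 CPM in controls, without overlap and with 0 of 8 markers called, and the part of endothelial content was not tested.

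With the combination in 4T1, Vcam1 was at 144.0, 243.8, 282.2 and 292.9 CPM, of which replicate 1 fell within the control range. Its log2 fold change against control was 0.64 ± 0.18 (adjusted p = 0.165, edgeR), and DESeq2 called it (adjusted p = 0.0364). edgeR called 0 of the 10 genes and 0% of all genes in this comparison, with 3 of the 10 and 2072 of all genes at an unadjusted p under 0.05. limma voom called 0 of the 10.

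**Figure D5:**
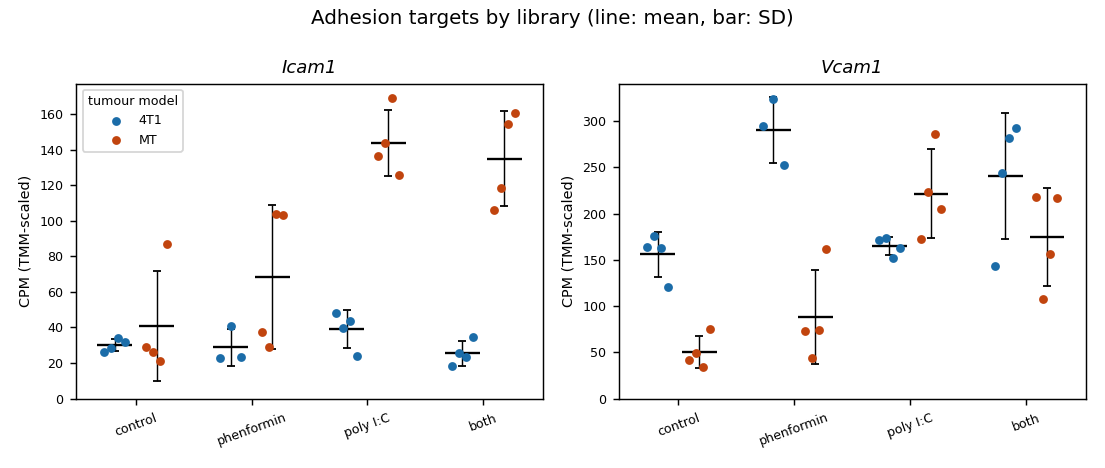
CPM per library (y axis, from 0) of Icam1 and Vcam1 by arm (x axis), with 4T1 in blue, MT in orange, black lines for the mean and bars for the SD. The 3 4T1 phenformin points of Vcam1 lie between 252.3 and 323.6 CPM, above its 4 control points, and the 8 MT points of Icam1 with poly I:C lie at 106.2 CPM or more.

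Adding phenformin to poly I:C gave lower values of most of the genes in 4T1, without a call in edgeR. The log2 fold change of the combination against poly I:C was below 0 for 9 of the 10 genes, from -0.68 ± 0.21 for Tnfaip3 (adjusted p = 0.109) to -0.21 ± 0.10 for Nfkb1, and above 0 for Vcam1 alone (0.54 ± 0.18, adjusted p = 0.138). The median was -0.43, against -0.0034 over all genes, and 0.246% of all genes were called. Of the 10 genes, 8 had an unadjusted p under 0.05, as did 3413 of all genes (19.6%). DESeq2 called 1 of the 10 (Tnfaip3, adjusted p = 0.0266) and 5.93% of all genes, and limma voom called 3 and 9.04%. Tnfaip3 with the combination was at 76.0, 78.8, 121.9 and 100.7 CPM, which overlapped with its poly I:C range through poly I:C replicate 4. Without that replicate, edgeR called 5 of the 10 lower, with log2 fold changes of -0.86 for Tnfaip3, -0.93 for Nfkbia, -0.79 for Icam1, -0.57 for Relb and -0.48 for Nfkbie. In that fit 8.1% of 17424 genes were called in either direction. The summed neutrophil markers were 79.6 to 263 CPM with the combination, below poly I:C replicates 1 to 3. The fibroblast sum was 2761 to 3545 CPM, below all 4 poly I:C libraries, and the macrophage sum was 974 to 1595 CPM, overlapping with poly I:C. None of the markers of these 3 lists was called, and the part of these cells in the values was not tested.

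The interaction asks whether the combination differed from the sum of the single log2 changes. In 4T1 it was below 0 for all 10 genes, from -1.35 ± 0.44 for Nfkbia to -0.24 ± 0.15 for Nfkb1, with a median of -0.60 beside 0.00015 over all genes. edgeR called 0 of the 10 and 0% of all genes (adjusted p = 0.505 for Nfkbia), with 5 of the 10 and 1628 of all genes at an unadjusted p under 0.05, and DESeq2 and limma voom also called 0 of the 10. These terms share the control libraries with the single comparisons. The combination against phenformin in 4T1 had 0 calls among the 10 by edgeR, DESeq2 or limma voom. Of all genes, edgeR and limma voom called 0% and DESeq2 1.04%. In edgeR 0 of the 10 and 2174 of all genes had an unadjusted p under 0.05. Nfkbia alone among the 10 had its combination libraries, at 78.2, 78.1, 112.0 and 121.5 CPM, wholly below the phenformin libraries, as 6.68% of all genes did.

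MT tumours gave no such lower values. Against poly I:C, the combination had log2 fold changes from -0.55 ± 0.29 (Nfkbiz) to 0.46 ± 0.42 (Nfkbia), 6 above and 4 below 0, with a median of 0.029. No tool called any of the 10, edgeR called 0% of all genes, and 0 of the 10 and 1076 of all genes had an unadjusted p under 0.05. The difference between the models in this step was not tested. MT phenformin against control had 10 log2 fold changes above 0, up to 0.83 ± 0.36 for Vcam1 (adjusted p = 0.812, edgeR), with 0% of all genes called. Of the 10 genes 1 had an unadjusted p under 0.05, as did 1084 of all genes (6.07%), and neither DESeq2 nor limma voom called any. Here the phenformin libraries themselves differed: Vcam1 was at 72.9, 44.3 and 74.3 CPM in replicates 1 to 3, which were high in Sox10, and at 161.3 CPM in replicate 4, which was low. The combination against phenformin in MT had 0 of the 10 called by edgeR, where 0.106% of all genes were. DESeq2 called 0 of the 10 and 1.5% of all genes, and limma voom called 4 of the 10 and 30.7% of all genes. An unadjusted p under 0.05 was found for 2 of the 10 and 2354 of all genes (13.2%). The MT interaction had 0 of the 10 called by all 3 tools and 0% of all genes in edgeR, with 2 of the 10 and 1769 of all genes (9.91%) at an unadjusted p under 0.05 (Nfkbiz at -0.96 ± 0.41 and Vcam1 at -1.19 ± 0.51).

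The untreated models differed in 5 of the 10 genes, all higher in 4T1, in a comparison where 51.9% of 18956 genes were called and 26.7% were called higher. Tnfaip3 differed by a log2 value of 1.65 ± 0.37 (adjusted p = 0.000647, edgeR), Vcam1 by 1.63 ± 0.30 (7.59e-05), Nfkbie by 1.15 ± 0.25 (0.000359), Nfkb2 by 0.93 ± 0.15 (1.93e-05) and Nfkb1 by 0.57 ± 0.15 (0.00224). The groups of libraries did not overlap for any of these 5, with the 4T1 libraries above, as for 25.6% of all genes. All 8 endothelial, all 8 macrophage and 7 of 8 fibroblast markers were also higher in 4T1 controls. The fibroblast sums were 2069 to 3580 CPM in 4T1 and 468 to 883 CPM in MT, and the part of these cells was not tested. Strain, cell line and library set cannot be told apart in this comparison. Against MT control replicate 4, the control low in Sox10, Vcam1 and Nfkb2 stayed called, whereas Tnfaip3 was at 0.69 (adjusted p = 0.199), Nfkbie at 0.80 (adjusted p = 0.0688) and Nfkb1 at 0.25 (adjusted p = 0.342). In that fit Icam1 and Nfkbia were lower in 4T1, at -1.53 and -1.59 (adjusted p = 0.00119 and 0.00523), in place of -0.44 ± 0.38 and -0.61 ± 0.38 with all libraries.

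Vcam1 was the 1 gene of the 10 with a poly I:C response called different between the models. That response was lower in 4T1 by a log2 value of 2.06, given as -2.06 ± 0.42 for 4T1 minus MT (adjusted p = 0.00303, edgeR). A count of 1 of the 10 was close to the share of all genes, of which 11.1% were called, 5.42% lower. The Vcam1 call held without each 1 of the 16 libraries in turn. Without the MT libraries high in Sox10 the difference was -1.51. With the Krt5 to Sox10 covariate it was -1.35 (adjusted p = 0.055), not called. In that fit another 1 of the 10 genes was called, with a response higher in 4T1, where 5.89% of all genes were called. All 8 macrophage, 5 of 8 endothelial and 2 of 8 fibroblast markers also responded lower in 4T1, and their part in the Vcam1 difference was not tested.

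For the combination, 2 of the 10 responses were lower in 4T1, Nfkbie by -1.60 ± 0.35 (adjusted p = 0.0127, edgeR) and Icam1 by -1.96 ± 0.55 (adjusted p = 0.0407), where 4.56% of all genes were called and 2.29% lower. The Nfkbie call held without each 1 of the 16 libraries, and that of Icam1 was lost in 12 of 16 such fits (adjusted p of 0.0517 to 0.0956), all but those without 4T1 combination replicate 4, MT combination replicates 1 or 2, or MT control replicate 4. Without MT control replicate 4, 7 of the 10 were called, where 23.7% of 18906 genes were. Of the markers, 4 of 8 macrophage, 3 of 7 neutrophil, 1 of 8 endothelial and 1 of 8 fibroblast genes responded lower in 4T1, and their part was not tested. Without the MT libraries high in Sox10 the differences were -1.26 for Nfkbie (adjusted p = 0.228) and -0.90 for Icam1 (adjusted p = 0.480). Without the 4T1 libraries with Acta1 above 10 CPM, Nfkbie was at -1.72 (adjusted p = 0.0968) and Icam1 at -2.03 (adjusted p = 0.166). In that fit 0.251% of 19112 genes were called. The phenformin response had 0 of the 10 called by edgeR, DESeq2 or limma voom, 0% of all genes in edgeR, and 0 of the 10 and 1394 of all genes at an unadjusted p under 0.05.

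The remaining pathway genes were 61 genes outside the 10, in lists of receptors and adaptors, kinases, inhibitors, targets, adhesion molecules and the other subunits. After poly I:C in 4T1, 3 of 60 tested were higher and 2 lower: the targets Gadd45b, a stress sensor (1.31 ± 0.27, adjusted p = 0.0153, edgeR), Cxcl2, a neutrophil chemokine (4.46 ± 1.02), and Ier3 (1.41 ± 0.40) rose, and the tumour necrosis factor receptor Tnfrsf1b (-0.50 ± 0.09) and Rbck1, a subunit of the linear ubiquitin ligase (-0.52 ± 0.10), fell. Their median was 0.035, and of all genes 3.26% were called higher and 3.06% lower. After poly I:C in MT, 15 of 61 were higher and 2 lower, with a median of 0.34, where 8.52% of all genes were called higher and 11.1% lower. Among them 6 of 10 adhesion molecules and integrins rose, including the beta-2 integrin subunit Itgb2 (1.77 ± 0.35, adjusted p = 0.00482), its partner Itgam (1.65 ± 0.25) and the endothelial selectin Sele (3.24 ± 1.01). Of the kinases, Map3k7, which encodes TAK1, rose (0.32 ± 0.08), as did Map3k14, which encodes NIK (0.93 ± 0.28), and Tab2 fell (-0.48 ± 0.14). The receptors Cd40 (1.51 ± 0.44) and Il1r1 (1.73 ± 0.43) rose too. Itgb2 and Itgam are leukocyte genes and rose beside the macrophage markers given above.

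The combination in MT had 5 of these 61 higher and 1 lower, where 2.81% of all genes were called higher and 3.33% lower, with Mmp9 at 1.60 ± 0.32, Itgb2 at 1.51 ± 0.34 and Bcl2a1b at 1.61 ± 0.39, a gene with near-identical copies whose reads may be split. In all other comparisons within a model 0 of the tested pathway genes were called by edgeR, with 4 to 16 at an unadjusted p under 0.05, where 1076 to 3413 of all genes were. DESeq2 and limma voom were not applied to these lists. The subunit gene Rela, which encodes p65, was not called in any treatment comparison, at 84.1 ± 11.7 CPM in 4T1 controls and 76.1 ± 10.9 CPM after poly I:C, and at 51.8 ± 8.18 and 51.9 ± 7.24 CPM in MT. Rel, which encodes c-Rel of lymphoid and myeloid cells, was low in both models, at 4.94 ± 0.675 and 4.24 ± 1.11 CPM in controls.

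Untreated, 26 of the 61 were higher in 4T1 and 7 lower, with a median of 0.37, where 26.7% of all genes were called higher and 25.2% lower. The farthest apart by p were the protease gene Mmp9 (339 ± 207 CPM in 4T1 against 2.13 ± 0.382 CPM in MT), the integrin gene Itgb1 (1685 ± 201 against 604 ± 57.7 CPM) and Il1r1 (112 ± 21.4 against 9.57 ± 6.97 CPM). Rela was higher in 4T1 as well (0.70 ± 0.14, adjusted p = 0.000205, edgeR). For the poly I:C response 1 of the 61 was higher in 4T1 and 6 lower (5.7% and 5.42% of all genes), among them Itgb2 (-1.99 ± 0.38), Il1r1 (-2.14 ± 0.45) and Itgam (-1.72 ± 0.37). The combination response had 1 higher and 4 lower (2.26% and 2.29% of all genes), among them Cd40 (-2.26 ± 0.55), Bcl2a1b (-2.06 ± 0.49) and Itgb2 (-1.46 ± 0.38).

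Pairs of the 10 genes were compared over the 15 4T1 libraries. There Nfkb1 and Nfkb2 followed each other most closely (Pearson r = 0.92, Spearman rho = 0.91), then Nfkbia and Nfkbiz (r = 0.88, rho = 0.79). Icam1 and Vcam1 had no such relation (r = -0.085, rho = -0.054). These are descriptions over libraries that share tumours' cell content and treatment. Over the 16 MT libraries, which fall into 2 states, Icam1 and Vcam1 had r = 0.91 and rho = 0.88. The median r of the 45 pairs was 0.81 in MT and 0.46 in 4T1. The part of the MT states in these values was not tested. Among all genes, those most like Relb over the 31 libraries, after each model's mean was subtracted, were Samsn1 (r = 0.94), Dusp2 (0.93) and Slc4a8 (0.93). These 31-library values pool both MT states, and the same genes had r of 0.83, 0.86 and 0.85 over the 15 4T1 libraries and 0.95, 0.94 and 0.93 over the 10 MT libraries low in Sox10. For Nfkbia they were Csrnp1 (0.91), Gadd45b (0.85) and Zfp36 (0.84), with 0.92, 0.77 and 0.90 over 4T1 and 0.84, 0.83 and 0.88 over MT low in Sox10. For Vcam1 they were Cd38 (0.93), Itgb2 (0.92) and Ifngr1 (0.91), with 0.75, 0.59 and 0.70 over 4T1 and 0.92, 0.92 and 0.80 over MT low in Sox10. For Icam1 they were Trim30a (0.95), Ccnd2 (0.95) and Tex15 (0.94), with 0.75, 0.87 and 0.80 over 4T1, but over the 10 MT libraries low in Sox10 Ccnd2 had r = 0.14 and Tex15 0.52, while Trim30a had 0.78.

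The positions of the genes, in GRCm38, are chr3:135584655-135691547 for Nfkb1, chr19:46304320-46312385 for Nfkb2, chr7:19606217-19629438 for Relb, chr12:55489410-55492647 for Nfkbia, chr17:45555703-45563169 for Nfkbie and chr16:55811375-55838899 for Nfkbiz. Tnfaip3 is at chr10:19000910-19015657, Birc3 at chr9:7848699-7873186, Icam1 at chr9:21015985-21028817 and Vcam1 at chr3:116109949-116129688. Exons of genes on the opposite strand overlap with exons of Nfkb2 (Psd and AC114539.1, up to 531 bases), Icam1 (Gm47079, 511 bases) and Vcam1 (Gm43109, 61 bases). The libraries were strand-specific, but the strand setting of the counting is not given in the sources used here, so reads of these pairs cannot be told apart in the overlaps.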

How the data were processed

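The authors deposited raw read counts per gene, which are the only values used. Per the submitters' processing notes, Trimmomatic 0.32.48, STAR 2.3.0 and featureCounts 1.4.4 were used with mm10/GRCm38. The annotation release and the strand setting are not given in the sources used here. Per the labels' protocols, polyA RNA was taken with RNeasy columns from cell pellets or frozen tissue, and the libraries were strand-specific Illumina TruSeq. Groups came from the sample titles.

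The counts were tested with edgeR 4.0.16 (R 4.3.3) by quasi-likelihood F-tests with TMM scaling, after a filter of at least 10 counts in the smallest group and 15 in all. 1 fit held the 4T1 libraries (17445 genes), another the MT libraries (17857) and the last all 31 (18956), for differences between models. p-values were adjusted by Benjamini-Hochberg over all genes of a fit, and a gene was called under 0.05. SE is the log2 fold change divided by the root of F. CPM used TMM-scaled library sizes, except those of Sox10, H2-Ea-ps, Acta1 and Igkc by themselves, which used library totals. Exon lengths and positions came from GENCODE M21, and promoters from RefSeq. The fits were tested on simulated data.

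The 10 genes and the lists were chosen with earlier results of these data known. Pathway genes named are the 3 with the smallest p among those called in a comparison, with Rela and Rel always. The others named in the pathway account were chosen after their values were seen. The genes most alike are the 3 with the highest Pearson r for Relb, Nfkbia, Icam1 and Vcam1. Alternatives were DESeq2 1.42.0, limma 3.58.1 voom, other filters and size factors, the replicate number as a block, fits of the compared groups alone, fits without sets of libraries or each library in turn, and a covariate for the MT states. Depth was 12160110 to 19849915 counts per library, and the number of libraries limits the precision. No table of protein sequences was used.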

Additional observations from a re-analysis of the deposited data

Results flagged for a closer look

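In 4 of the genes, MT control replicate 4 stood far above the other 3 control libraries. Its gap to the nearest library, as a share of the group's whole range, was 0.963 for Nfkbia (236.5 against 84.4 CPM), 0.894 for Tnfaip3 (44.9 against 17.0 CPM), 0.881 for Relb (33.7 against 17.1 CPM) and 0.879 for Icam1 (86.7 against 29.0 CPM), beyond Dixon's critical value for 4 samples. This library was the one MT control low in Sox10. It also had the lowest neutrophil marker sum of the MT controls, 19.9 CPM, and a T cell marker sum of 458 CPM, the highest of that group. Its epithelial marker sum was 5483 CPM, beside 1186 to 1575 CPM in the other controls. Its B and plasma cell marker sum was 686 CPM, beside 5.47 to 28.3 CPM. The part of these differences in the 4 genes was not tested.

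MT poly I:C replicate 3 stood above the rest of its group for Relb, with a share of 0.841 (43.6 against 26.2 CPM), and for Nfkb1, with 0.852 (184.2 against 157.8 CPM). It also had the highest B and plasma cell (3886 CPM) and T cell (674 CPM) marker sums of its group, and their part was not tested. In all, 6 of 70 groups of 4 samples were beyond the critical value, where chance gives about 1 in 20.

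The response to treatment differed between the models by an interaction test for 3 genes, given as 4T1 minus MT on the log2 scale: Vcam1 after poly I:C by -2.06, Nfkbie with the combination by -1.60 and Icam1 with the combination by -1.96. Each rests on MT controls of which 3 of 4 were high in Sox10, and none of the 3 stayed called with the Krt5 to Sox10 covariate.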

How the results depend on the processing

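Numbers of the 10 genes called changed as follows, and the cause was not tested except that leaving out libraries leaves fewer samples. Percentages are the shares of all genes called in the same fit. Counts without the libraries high in Sox10 are left out, as that fit held 1 MT control library. For poly I:C in 4T1 the count of 2 became 1 under the replicate block (4.76%) or with only the compared groups (2.42%). It became 0 without the libraries high in Acta1, where 0 of 17540 genes were called, or those high in Igkc (1.49%). With DESeq2 (11.9%) or limma voom (16.4%) it became 3. For phenformin and for the combination against control in 4T1, DESeq2 gave 1 in place of 0 (1.01% and 2.31%). For the combination against poly I:C in 4T1, DESeq2 gave 1 (5.93%) and limma voom 3 (9.04%) in place of 0. For poly I:C in MT the count of 5 became 3 with no filter on low counts (9.24%) and 4 under the replicate block (18.4%). It became 6 with only the compared groups (24.8%) and 7 with limma voom, which called 59.6% of all genes. With the Krt5 to Sox10 covariate it became 2 (8.78%), namely Vcam1 higher and Nfkbia lower at -0.88. That fit depends much on MT control replicate 4. For the combination against control in MT the count of 3 became 6 with DESeq2 (16.7%) and 8 with limma voom, which called 52.5% of all genes. It became 1 with no filter (1.25%) and 0 with only the compared groups (0.305%). With the covariate it became 0, where 0 of 17857 genes were called. For the combination against phenformin in MT, limma voom gave 4 in place of 0 (30.7%). Between untreated models the count of 5 became 6 with only the compared groups (1 of them lower in 4T1), where 53% of all genes were called. It became 7 with limma voom (65.6%) and 7 with the covariate (2 lower), where 52.8% were. The poly I:C response difference went from 1 to 3 with DESeq2 (15.6%), 4 with limma voom (42.8%) and 2 with only the compared groups (14.4%). With the covariate it stayed at 1 (5.89%), but this was another gene than Vcam1, higher in 4T1. The combination response difference went from 2 to 3 with DESeq2 (11.6%), 7 with limma voom (38.9%) and 1 without the libraries high in Igkc (2.32%). It became 0 without those high in Acta1 (0.251%) or with the covariate (0.575%).

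With each library left out in turn, the counts ran from 1 to 3 for poly I:C in 4T1, 0 to 5 for the combination against poly I:C in 4T1, 1 to 5 for poly I:C in MT, 0 to 8 for the combination in MT, 1 to 3 for the poly I:C response difference and 1 to 7 for that of the combination. The highest counts came without 4T1 poly I:C replicate 4 in 4T1 and without MT control replicate 4 in the others. With all libraries, only that 1 control was both untreated and low in Sox10. Without it, poly I:C treatment and MT state cannot be told apart. There 34.5% of all genes were called for poly I:C in MT and 29.7% for the combination. The difference between untreated models stayed at 5 in each of these fits, and the other comparisons at 0.

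The correlation of same-numbered libraries' deviations ran from -0.514 to 0.219 in 4T1 (21 pairs, mean -0.066). In MT it ran from -0.805 to 0.770 (24 pairs, mean 0.046). For libraries of other numbers it ran from -0.416 to 0.643 in 4T1 (63 pairs, mean 0.026). In MT these ran from -0.887 to 0.800 (72 pairs, mean 0.006). Replicates 1 to 3 of the MT control and phenformin arms were high in Sox10, and replicate 4 of both was low. Whether replicate numbers pair the samples was not tested. The replicate block ended the calls of Nfkbiz in 4T1 (adjusted p = 0.0893) and Nfkb1 in MT after poly I:C (adjusted p = 0.0529) and no other call among the 10 genes. With no filter, Nfkb1 and Tnfaip3 after poly I:C in MT had adjusted p = 0.0579 and 0.0525.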
